A study of Mus musculus with 4 samples.

Results

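Chromosome 11 of the mouse carried 1127 of the 16591 wild-type peaks (6.79%) and 171 of the 4622 knockout peaks (3.70%) of topoisomerase IIα (TopoIIa). These 1298 regions are every peak on chromosome 11 in the 2 deposited lists, of 21213 peaks in all. A peak is a stretch of DNA where the sequenced fragments piled up, given here by its position in the genome build mm9. The cells were embryonic stem cells from Brg1f/f-actinCreER mice, in which tamoxifen switches on a Cre recombinase that deletes Brg1. They expressed a V5-tagged human TopoIIa, and a short hairpin RNA against the mouse enzyme was present in both genotypes. Tamoxifen for 24 h and then 48 h in plain medium gave the Brg1-/- cells, and ethanol on the same schedule gave the wild-type control. Both received 100 µM etoposide for 10 min before lysis. The series held 4 samples, a V5 pull-down and an input from each genotype, and the 2 inputs were not analysed here. There was 1 V5 library per genotype from 1 engineered line, so there was no replicate error, no p-value was computed, and depth is unknown.

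TopoIIa cuts both strands of a DNA duplex, passes another duplex through the gap and reseals it, which removes tangles and supercoils left by replication and transcription. During the cut the enzyme is covalently bound to DNA, and etoposide, a topoisomerase II poison, blocks the resealing so that the bound enzyme accumulates. Brg1 is the ATPase of BAF (mSWI/SNF), a chromatin remodelling complex. The design asked where TopoIIa acts on DNA with and without Brg1. Chromosome 11 was chosen with its peak density and its small overlap between genotypes already known. Those values are therefore descriptions, and they were not tested. A peak is called shared if it has at least 1 bp in common with a peak of the other genotype. Intervals given with counts and shares are exact 95% intervals. They reflect counting error alone and take each peak as an independent event.

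Wild-type TopoIIa sites were packed closely on chromosome 11 and knockout sites were thinly spread. The wild-type list had 9.25 peaks per Mb (interval 8.72 to 9.81), counted to the last called peak at 121.777 Mb, the second highest density of the 19 autosomes after chromosome 8 (9.86). The knockout list had 1.40 peaks per Mb (1.20 to 1.63), rank 3 from the lowest. Chromosome 8, the autosome nearest in wild-type density, was the densest in knockout peaks too, at 2.38 per Mb. Of its 314 knockout peaks, however, 70 (22.3%) lay in its last 7 windows of 1 Mb. At scores of at least 100 no lower knockout density was seen on chromosome 11. Chromosome 11 had 18 such knockout peaks, 0.148 per Mb (0.0876 to 0.234), and the other autosomes had 0.132 per Mb (0.118 to 0.148). Of these 18, however, 8 stood together in the first 1 Mb window at the proximal edge, and only 10 lay on the rest of the chromosome.

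Chromosome 11 had 6.59 wild-type peaks for each knockout peak, the highest of the 19 autosomes, followed by 6.49 on chromosome 19. The median of the other 18 was 3.94. That order changed with the score limit: at scores of at least 100 in both lists the ratio was 30.8 and ranked 7. The 18 knockout peaks behind that ratio include the 8 of the first window, which held only 9 of the 555 wild-type peaks of that score. Only 10 such knockout peaks lay elsewhere, so the fall to rank 7 leans on that window. The rank without it was not computed. Over all scores, without the distal stretch described below, the ratio was 5.29. Wild-type peaks covered 2.20% of the chromosome's called length, against 0.891% to 2.77% on the other autosomes.

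**Figure D1:**
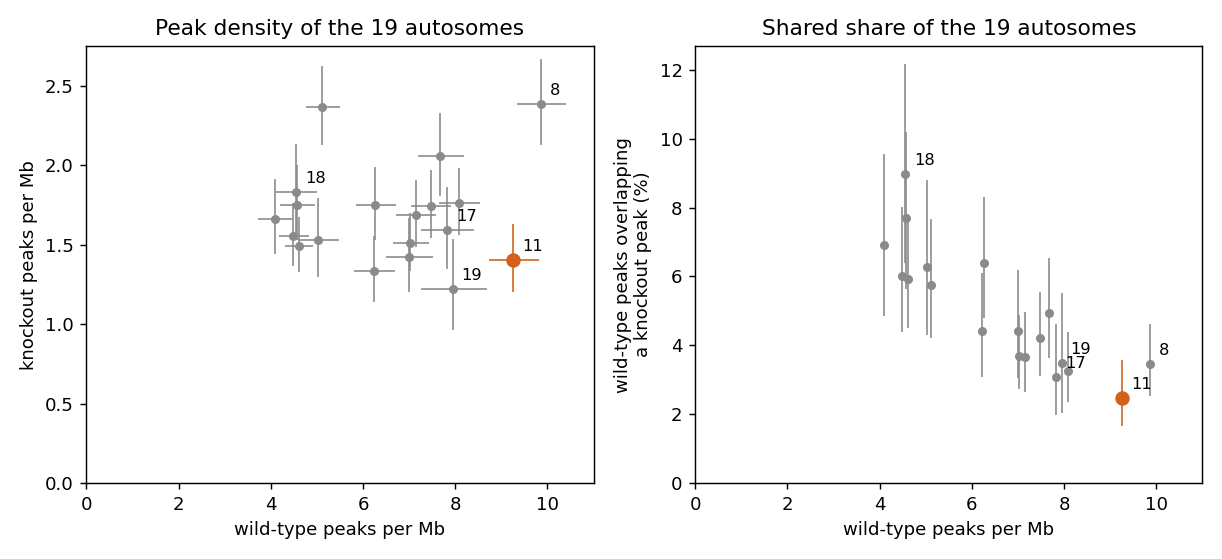
Left, knockout peaks per Mb against wild-type peaks per Mb; right, the share of wild-type peaks that overlap a knockout peak against wild-type peaks per Mb. Each point is 1 of the 19 autosomes (chromosome 11 in orange, the others in grey, 5 labelled), and bars are exact 95% counting intervals; chromosome 11 lies at 9.25 wild-type and 1.40 knockout peaks per Mb and has the lowest shared share, 2.48%.

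The label gene-rich could be checked only by number. A RefSeq gene table of another assembly, GRCm38.p6, places 1609 protein-coding genes on chromosome 11, rank 3 among the autosomes after chromosomes 7 (2030) and 2. No coordinates of that assembly were used, so no peak was assigned to a gene, and no sequence was read. Per 100 protein-coding genes chromosome 11 had 70.0 wild-type peaks, rank 13 of 19, so its wild-type sites were not numerous for its genes. It had 10.6 knockout peaks per 100 genes, the lowest value together with chromosome 19 (10.6).

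Wild-type sites were spread very unevenly along the chromosome. In 119 windows of 1 Mb, from 3000001 to the last called peak, the number of wild-type peaks ran from 0 to 59 with a median of 5 (interquartile range 3 to 12.5). The median of the other autosomes' 2305 windows was 4 (3 to 7). Chromosome 11 thus differed from the other autosomes together more in the upper quartile than in the median. Its variance over mean was 11.8, rank 4 of the 19 autosomes, after chromosomes 10 (22.7), 8 (19.5) and 17 (14.3). Windows holding 50% of all wild-type peaks numbered 20 of 119 (16.8%), close to the 17.0% on the other autosomes.

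Dense windows were defined as those with at least 14 wild-type peaks, the 90th percentile of all autosomal windows. Chromosome 11 had 27 (22.7% of its windows, 15.5 to 31.3%), the highest share of the 19 autosomes, ahead of chromosome 4 (18.95%). On the other 18 autosomes together the share was 10.1% (8.91 to 11.4%). These 27 windows held 680 wild-type peaks, 60.3% of the chromosome's total, and 32 knockout peaks, 18.7%. Of those 32, 13 stood in the first window alone, and without it 19 of 158 knockout peaks (12.0%) lay in 26 of 118 windows (22.0%).

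Of the 12 stretches of dense windows 6 were single windows and 6 were runs of 2 to 6 windows. The biggest lay near the distal end, from 115000001 to 121000000, with 254 wild-type peaks in 6 windows of 27 to 59 peaks each. This stretch is 4.93% of the called length and held 22.5% of the wild-type peaks, at 42.3 per Mb against 7.54 on the rest of the chromosome. It held 6 knockout peaks (3.51%), or 1 per Mb against 1.43 on the rest. Wild-type and knockout numbers thus differed 42.3 times here and 5.29 times elsewhere.

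The single richest window was 120000001 to 121000000, with 59 wild-type and 2 knockout peaks. Next came 115000001 to 116000000, with 53 wild-type peaks and no knockout peak. The window from 119000001 to 120000000 had 40 and 2. With the richest 6 consecutive windows left out of every autosome, which on chromosome 11 removes this run, its wild-type density was 7.54 per Mb and still ranked 2, after chromosome 8 (8.05). Its last 7 windows held 263 wild-type peaks (23.3%), more than the last 7 of any other autosome in number and in share. The next were chromosome 4 with 183 and chromosome 15 with 14.6% of its peaks. The length of 7 windows was set to take in chromosome 11's own run of 6, so it favours chromosome 11.

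A further 4 runs of at least 2 dense windows lay inside the chromosome, and a run of 4 windows stood at the proximal end. From 94000001 to 99000000, 5 windows held 109 wild-type peaks and 2 knockout peaks. At the proximal end, 3000001 to 7000000 held 76 wild-type peaks in windows of 14 to 23. That stretch also held 14 knockout peaks, 13 of them in its first window. The runs from 102000001 to 104000000 (46 wild-type peaks), 69000001 to 71000000 (45) and 74000001 to 76000000 (33) had 1, 1 and 3 knockout peaks. A surplus of wild-type peaks in each of these runs was built in by the choice of dense windows, and only its size is informative. Every dense window has at least 14 wild-type peaks, and no window of the chromosome held more than 13 knockout peaks. Relative to the knockout number, the surplus was smallest at the proximal end, through the 13 knockout peaks of the first window. The later windows of that run held 21, 23 and 14 wild-type peaks and 0, 1 and 0 knockout peaks. Of the 27 dense windows 14 had no knockout peak at all (51.9%, 31.9 to 71.3%), against 64 of 233 dense windows on the other autosomes (27.5%, 21.8 to 33.7%).

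**Figure D2:**
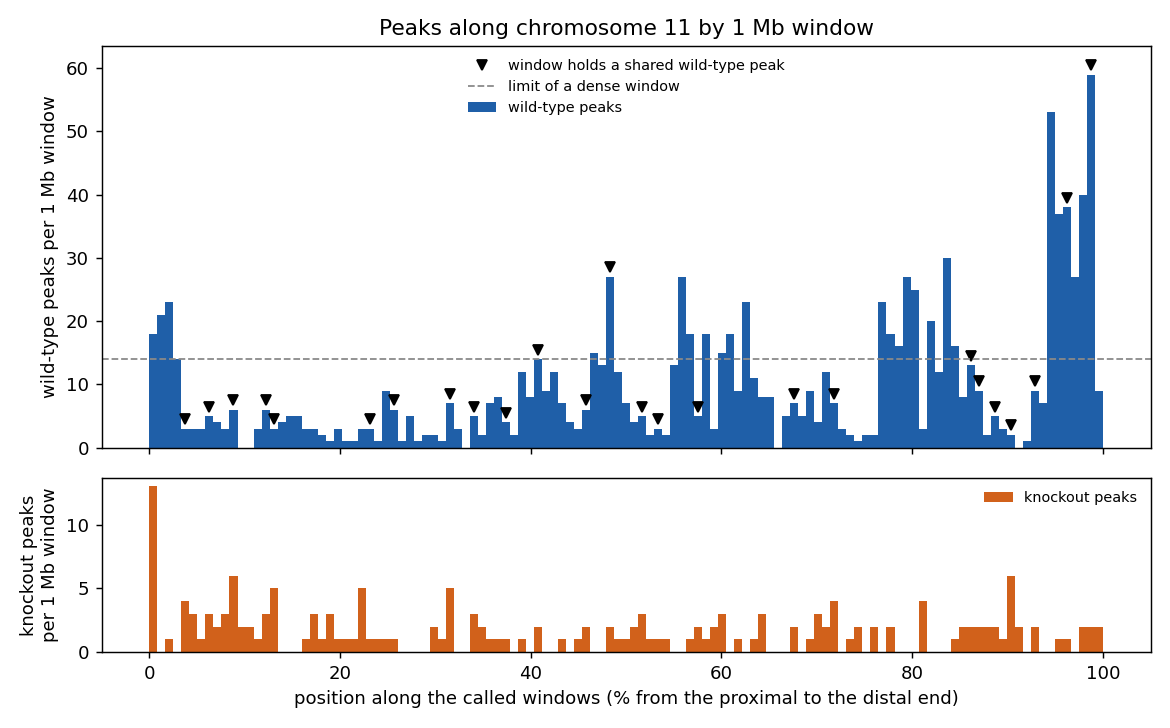
Number of wild-type peaks (top, blue) and knockout peaks (bottom, orange) in each of the 119 windows of 1 Mb of chromosome 11, from the proximal to the distal end in percent of the called windows; the dashed line is the limit of 14 peaks for a dense window, and triangles mark the 25 windows that hold a wild-type peak shared with the knockout list. The 5 highest windows, with 37 to 59 wild-type peaks, are all in the distal run, while knockout bars reach 13 only in the first window.

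Sparse stretches lay between these runs, above all from 10000001 to 40000000. Its 3 segments of 10 Mb held 34, 27 and 31 wild-type peaks, and 27, 16 and 7 knockout peaks. In the segment from 10000001 to 20000000 the lists were nearly level, at 1.26 wild-type peaks per knockout peak. That ratio was 15.3 (214 to 14 peaks) from 110000001 to 120000000. It was 17 in the last segment, from 120000001 on, which ends at the last called peak at 121.777 Mb and held 68 and 4 peaks. The balance of the genotypes thus differed widely along the chromosome.

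Windows with no wild-type peak numbered 5 (4.20%, 1.38 to 9.53%), against 2.65% (2.03 to 3.39%) on the other autosomes, a difference within the counting error. They were 14000001 to 16000000 (2 windows), 42000001 to 43000000, 81000001 to 82000000 and 111000001 to 112000000. The first and the last of these stretches held 4 and 2 knockout peaks, so they were not empty in both lists. Counted by the base, the longest stretch without a wild-type peak ran for 2437 kb, from 13848260 to 16285139. The next ran for 2196 kb, from 110447084 to 112643114, and for 1617 kb, from 41699667 to 43316556. All of these 3 held at least 1 knockout peak. The 2 next in length, from 36008536 to 37446694 (1438 kb) and from 34050548 to 35446463 (1396 kb), held no peak of either list.

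Knockout peaks left 39 windows empty (32.8%, 24.4 to 42.0%), against 25.1% (23.4 to 26.9%) on the other autosomes. The median window held 1. The longest stretch without a knockout peak, 4642 kb from 33655097 to 38296828, was poor in wild-type peaks too, with 12. The next in length, from 18708262 to 22935522 (4227 kb) and from 79996632 to 83538139 (3542 kb), held 17 each. By contrast the stretches from 99995788 to 103421217 (3425 kb) and from 95904361 to 99150180 (3246 kb) held 72 and 70 wild-type peaks. Absence of knockout peaks was therefore found in stretches with few wild-type peaks, the longest among them, and in stretches with many.

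Between neighbouring wild-type peaks the median gap was 32.3 kb on chromosome 11 (interquartile range 8.42 to 103 kb) and 66.1 kb on the other autosomes. Gaps of at most 10 kb made up 27.9% of all gaps (25.3 to 30.6%), against 19.1% (18.5 to 19.7%). Knockout peaks were 371 kb apart in the median, against 322 kb.

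Groups of at least 5 wild-type peaks no more than 10 kb apart numbered 17 and held 106 peaks (9.41%, 7.76 to 11.3%), against 7.51% (7.09 to 7.95%) on the other autosomes. The intervals overlapped, and chromosome 11 ranked 6 of the 19 autosomes, the highest being chromosome 8 (24.0%). Of the 17 groups 12 lay inside the distal run, and without that run the share was 2.98%. The biggest had 9 peaks over 67.4 kb, from 115700048 to 115767486, with scores of 51.8 to 552. Its neighbour from 115640300 to 115686419 had 8 peaks over 46.1 kb, and so did a group from 117621113 to 117675357 over 54.2 kb. Groups of 7 stood from 119919874 to 119961442, from 120111859 to 120150131 and from 120310679 to 120360796. The last of these was weak throughout, with a top score of 138, while the others of this size reached 586 and 476. No group of chromosome 11 approached the biggest group of the other autosomes, which had 32 peaks.

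Of the 106 grouped wild-type peaks 0 overlapped a knockout peak, which allows a share of up to 2.83%, where the background over all peaks of the 19 autosomes is 4.62%. On the other autosomes 8 of 1118 did (0.716%, 0.309 to 1.41%). The distance from these groups to the nearest knockout peak ran from 21.0 kb, for the group at 120210151 to 120239851, to 1392 kb, for the group at 97296429 to 97326912. All 17 groups, then, stood at least 21.0 kb clear of the knockout peaks.

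The score is the authors' own value for each peak, has no header and need not mean the same in both lists, although the same limit was at times set in both. Wild-type peaks of chromosome 11 scored 50.1 to 3100 with a median of 98.6 (interquartile range 67.0 to 169), the lowest median of the 19 autosomes, although chromosome 5 (99.1) was close. A score of at least 100 was reached by 555 of the 1127 (49.2%, 46.3 to 52.2%), against 53.2% (52.4 to 54.0%) on the other autosomes. Chromosome 11 thus had many wild-type sites of modest score. Its share of all autosomal wild-type peaks was 7.04% (6.65 to 7.45%) over the whole list, 5.40% (4.07 to 7.01%) at scores of at least 400 and 3.49% (1.61 to 6.52%) at scores of at least 800, where it had 9 of 258 peaks.

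Peaks of the crowded distal run did not score higher than the rest. The 254 peaks there had a median score of 96.5 (interquartile range 67.6 to 168) and a top score of 632, against a median of 99.3 (66.9 to 169) and a top score of 3100 on the rest of the chromosome. Their median width was 2280 bp against 2159 bp. Among the 10 highest-scoring wild-type peaks of the chromosome none lay in that run. In segments of 10 Mb the median score was highest from 40000001 to 50000000, at 143, where only 50 peaks stood.

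The top wild-type site of the chromosome spanned 58816706 to 58821336 (4631 bp wide, with a score of 3100), 1576 kb from any knockout peak. The second, 106804505 to 106811772 (7268 bp, score 1829), held a knockout peak. Sites 3 to 5 by score were 97488356 to 97491603 (1592), 5067024 to 5071166 (1497) and 82742912 to 82747634 (1136), and none had a knockout peak within 1 kb. The nearest knockout peaks lay 1584, 435 and 791 kb from them. The remaining 5 of the top 10 were 59998060 to 60005047, 35544396 to 35547237, 3475429 to 3478630, 108871818 to 108874837 and 74977556 to 74984669, with scores of 794 to 900. Of these 10 peaks 2 were shared. Of the top 100 of the chromosome 8 were (8%, 3.52 to 15.2%), against 24 of the top 100 of the other autosomes (24%, 16.02 to 33.6%). Those top 100 are cut at different scores, since the other autosomes have far more peaks to choose from.

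**Figure D3:**
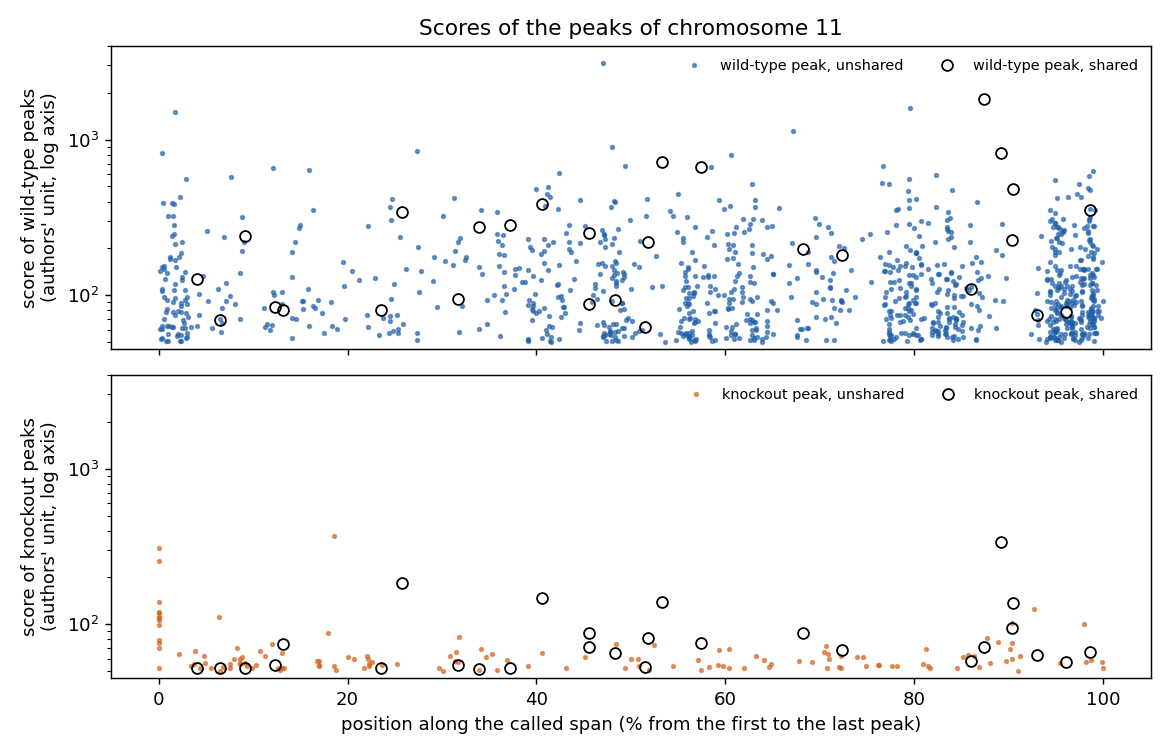
Score of each wild-type peak (top, 1127 points) and knockout peak (bottom, 171 points) of chromosome 11 on a log axis against position in percent of the called span; open circles are the 28 shared peaks of each list. Wild-type scores fill the range from 50.1 upward at every crowded place, the crowded distal end stays below 632, and 8 of the 18 knockout peaks scoring at least 100 form a column at the proximal edge.

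Knockout peaks of chromosome 11 resembled those of the other autosomes, with a median width of 141 bp in both and a median score of 59.0 (interquartile range 53.7 to 69.2, highest 370) against 58.4. Those at the proximal edge were wider and scored higher. The first window had 13 knockout peaks, more than the first window of any other autosome (1 to 5). They lay between 3000004 and 3094359, and none overlapped a wild-type peak, the first of which began at 3189269, 94.9 kb beyond the last of them. Their widths were 306 to 4954 bp, and their median score was 109.

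These 13 peaks made up 7.60% of the chromosome's knockout peaks but 48.5% of the 45.2 kb that its knockout peaks cover. All 5 knockout peaks at least as wide as the narrowest wild-type peak of the chromosome (1025 bp) were among them, as were 8 of the 18 that scored at least 100. Outside the first window the widest knockout peak was 585 bp. The only knockout groups of at least 3 peaks with gaps of at most 10 kb also lay here: 6 peaks from 3000004 to 3004797 (scores 98.7 to 310) and 5 from 3026940 to 3050453 (52.5 to 256). The inputs and the mm9 sequence were not used, so how these edge positions behave without a pull-down was not tested.

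The top knockout peak of the chromosome, 25000061 to 25000220, was 160 bp wide, scored 370 and lay 217 kb from the nearest wild-type peak. It was followed by 108872905 to 108873489 (585 bp, score 337), on a wild-type peak, and by 3000753 to 3002616 and 3031251 to 3036204 (310 and 256), both at the proximal edge and on none. Among the 10 top knockout peaks 5 overlapped a wild-type peak, against 8 of the top 10 of the other autosomes and a background of 21.2% over all knockout peaks of the 19 autosomes. Of the other 5, 3 were in the first window and 2 were the peak at 25000061 and that at 113082297 to 113082592 (score 125). Those top 10 are cut at different scores: 28 autosomal knockout peaks scored at least 400, and none of them was on chromosome 11.

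Sharing between the genotypes was rare on chromosome 11. Of the 1127 wild-type peaks 28 were shared (2.48%, 1.66 to 3.57%), against that background of 4.62%. It was the lowest share of any autosome, below chromosome 17 (3.10%), whose interval overlaps it, and the other 18 together had 4.78% (4.45 to 5.14%). The other autosomes' shares in windows of like wild-type number would give 38.4 shared peaks here (3.41%). That is within the counting interval of the 28 (18.6 to 40.5). Their shares at like wild-type score would give 51.9 (4.60%), which is above it. What sets the low share was not tested. Per length chromosome 11 was also last, with 0.230 shared peaks per Mb against 0.242 to 0.408. The 28 sites pair with 28 knockout peaks, 1 on each. Those are 16.4% of the 171 knockout peaks (11.2 to 22.8%), against a background of 21.2%, so the knockout share was within counting error of the background and ranked 4 from the lowest.

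The 28 shared sites were scattered, and 4 of them lay in dense windows, 2 of these in the distal run. Those 4 are 0.588% of the 680 wild-type peaks in dense windows (0.1605 to 1.499%). On the other autosomes 73 of 5701 such peaks were shared (1.28%, 1.005 to 1.607%), and the intervals overlapped. Few shared peaks in dense windows were thus seen on the other autosomes too. The 28 shared sites stood in 25 windows, a median of 3.09 Mb apart between centres. The widest stretch without any ran for 16.2 Mb, from the shared peak at 88942140 to 88944392 to the one at 105160045 to 105162220, and held 211 wild-type and 15 knockout peaks, the dense run from 94000001 included. By 10 Mb segment the share was highest from 10000001 to 20000000, with 4 of 34 wild-type peaks (11.8%, 3.30 to 27.5%). In the segment from 90000001 to 100000000 none of 119 was shared, which allows up to 2.52%, and from 70000001 to 80000000 1 of 128 was (0.781%, 0.0198 to 4.28%). In the distal run 2 of 254 were shared (0.787%, 0.0955 to 2.82%). Without that run the chromosome's share was 2.98% (1.95 to 4.33%), still below every other autosome.

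Shared wild-type sites had a median score of 208 (interquartile range 87.2 to 347), against 98 for the unshared ones. The 10 of highest score were, in order, the peaks at 106804505 (1829), 108871818 (822), 66233172 (718), 71195282 (667), 110444783 (485), 51267705 (385), 120064813 (354), 33653962 (344), 47240525 (283) and 43316557 (275), each given by its start. The window from 110000001 to 111000000 held 2 wild-type peaks, at 110282662 and 110444783, both shared, and 6 knockout peaks. Their knockout peaks were much narrower: on the 7268 bp wild-type peak at 106804505 the knockout peak spanned 106808490 to 106808674, 185 bp with a score of 71.4. On the wild-type peak at 108871818 it spanned 108872905 to 108873489, with a score of 337. At the other extreme 10 of the 28 shared wild-type peaks scored under 100, the weakest 62.7, at 64112343 to 64114492.

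Where the lists met, they met near the middle. The knockout centre lay 1 to 574 bp from the wild-type centre (median 248 bp), within 500 bp in 27 of 28 pairs. It fell in the central 25% of the wild-type peak in 20 of 28 pairs (71.4%, 51.3 to 86.8%), against 442 of 863 knockout peaks on the other autosomes (51.2%, 47.8 to 54.6%). The intervals overlapped. The units also differ, since those 863 knockout peaks lay on 712 wild-type peaks and were not all single pairs. Over the 28 pairs the scores of both lists went up together (Spearman rho = 0.55 across sites, which share their libraries and position, with no test).

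By score, the gap to the other autosomes was widest among wild-type peaks of 100 to 200. There 4 of 327 were shared on chromosome 11 (1.22%, 0.334 to 3.10%), against 5.31% (4.68 to 5.98%). At scores of at least 200 the shares were 6.14% (3.40 to 10.1%) and 9.61% (8.61 to 10.7%), and below 100 they were 1.75% (0.841 to 3.19%) and 2.21% (1.88 to 2.58%). In both of these classes the intervals overlapped. Among knockout peaks with scores of at least 100, 5 of 18 overlapped a wild-type peak (27.8%, 9.69 to 53.5%), against 56.3% (50.6 to 61.9%). Leaving out the first window, it was 5 of 10 (50%, 18.7 to 81.3%).

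By local crowding, the shared share was near that of the other autosomes where wild-type peaks were few and lower where they were many. In windows with 1 to 4 wild-type peaks 7 of 111 were shared (6.31%, 2.57 to 12.6%), against 8.60% (7.63 to 9.63%). In windows with 5 to 9 it was 16 of 226 (7.08%, 4.10 to 11.2%), against 6.99% (6.26 to 7.77%). Both of these classes differed from the other autosomes by less than the counting error. In windows with 10 to 19 it was 2 of 290 (0.690%, 0.0836 to 2.47%), against 2.75% (2.22 to 3.37%), and in windows with 20 or more 3 of 500 (0.600%, 0.124 to 1.74%), against 1.02% (0.734 to 1.38%). With these last 2 classes pooled, 5 of 790 were shared (0.633%, 0.206 to 1.47%), against 131 of 7286 (1.80%, 1.51 to 2.13%), and the intervals just missed each other. The classes are set by the wild-type number, by which the share is also divided, so a lower share with more crowding is built in.

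Knockout peaks themselves were fewest in the most crowded windows. The 16 windows with 20 or more wild-type peaks held 9 knockout peaks, 0.563 per window (0.257 to 1.07), and 10 of the 16 held none (62.5%, 35.4 to 84.8%). On the other autosomes such windows held 2.02 knockout peaks each (1.79 to 2.28), or 1.46 (1.26 to 1.68) with each knockout group of at least 3 peaks counted as 1, and 23.3% (16.3 to 31.5%) held none. In windows with 10 to 19 wild-type peaks the numbers were 1.5 (1.01 to 2.14) and 1.46 (1.32 to 1.62). The value of 1.5 rests on the first window, with 13 of these knockout peaks: without it 19 windows held 17, or 0.895 each (0.521 to 1.43). Neighbouring windows are not independent, and 6 of these 16 form the distal run.

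**Figure D4:**
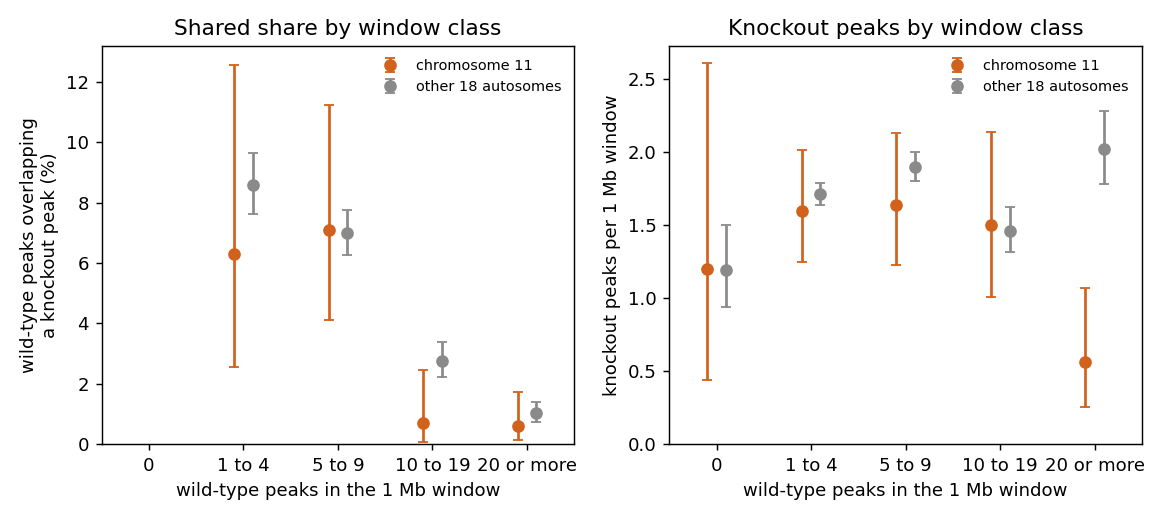
Share of wild-type peaks overlapping a knockout peak (left) and knockout peaks per window (right) for 1 Mb windows grouped by their number of wild-type peaks, on chromosome 11 (orange) and the other 18 autosomes (grey); bars are exact 95% counting intervals. The intervals of chromosome 11 and the other autosomes overlap in every class but 1: at 20 or more wild-type peaks chromosome 11 has 0.563 knockout peaks per window against 2.02.

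Seen from the knockout list, 64 of 171 peaks (37.4%, 30.2 to 45.1%) lay over 100 kb from any wild-type peak, against 30.6% (29.2 to 32.1%) on the other autosomes, and the intervals overlapped. Without the first window it was 52 of 158 (32.9%, 25.7 to 40.8%). A further 57 lay 10 to 100 kb away and 22 lay up to 10 kb away without overlap. Seen from the wild-type list, the nearest knockout peak was 383 kb away in the median (interquartile range 156 to 781 kb), against 236 kb (84.2 to 508 kb).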

How the data were processed

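Per the labels' protocols, covalent TopoIIa-DNA complexes were pulled down with an anti-V5 antibody, and fragments near 300 bp were sequenced after 17 amplification cycles. The authors deposited 1 peak list per V5 library, with a score per peak that has no header. Per the submitters' processing notes, which state no roles, the tools were Bowtie 0.12.8 and MACS 1.4.2 and the build mm9. Thresholds, filters and the control are not given in the sources, so whether both lists were called alike is unknown. Depth is unknown.

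Groups came from sample titles. Starts are printed 1-based. Peaks were placed in 1 Mb windows from position 1 by their centre, from the first to the last called window; chromosomes X and Y stayed out of comparisons. Binomial (Clopper-Pearson) and Poisson intervals are exact at 95%; for a count of 0 the limit is 3 counts of the total. Peaks, gaps and groups were named by a fixed rule of rank: the top 10 peaks of each list, the top unshared peaks (5 wild-type, 3 knockout), the 10 richest windows, the 5 longest gaps and biggest groups, all knockout groups and the 10 top shared peaks. Chromosome 11, its members and these rules were chosen with earlier results of these data known. The overlap, distance and grouping steps were tested on simulated data. The work used scipy 1.17.1, matplotlib 3.10.9, pandas 2.3.3 and numpy 2.4.6 under Python 3.11.15. Alternatives were other score limits, windows, overlaps and gaps, and leaving out the first window or the distal run.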

Additional observations from a re-analysis of the deposited data

How the results depend on the processing

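Among 34 alternatives, 18 gave a value inside the reported value's counting interval (for empty windows, within 1.5 times) and 16 moved. Wild-type peaks stayed the more numerous in each, but 2 contrasts with the other autosomes did not hold. Knockout density was 1.40 per Mb against 1.72 over the whole list. At scores of at least 100 it was 0.148 (0.0876 to 0.234) against 0.132 (0.118 to 0.148), with overlapping intervals, and 8 of those 18 knockout peaks were in the first window. The share in groups fell below the other autosomes' 7.51% without the distal run, which was left out of chromosome 11 alone. The wild-type density (9.25 per Mb) at score limits of 100 and 200 became 4.56 and 1.87, and the knockout density (1.40) became 0.148 and 0.0328. At scores of at least 100 the ratio of the lists (6.59) became 30.8, the 5 windows without a wild-type peak became 12, and the shared share of wild-type peaks (2.48%) became 0.901% with the limit in both lists, where chromosome 11 ranked 3 from the lowest. The shared share of knockout peaks (16.4%) became 27.8% with that limit, and 20.2% of wild-type peaks scored at least 200. With peaks within 10 kb merged the ratio was 5.21. Without the distal run, an alternative chosen after seeing the data like that of leaving out the first window, wild-type density was 7.54 per Mb, the ratio 5.29 and the share in groups (9.41%) 2.98%. That last share became 2.04% with gaps of at most 5 kb, 47.2% with gaps of at most 50 kb and 23.6% for groups of at least 3. Beyond the fewer peaks that a score limit leaves, the cause was not tested. The shared share stayed the lowest of the 19 autosomes with a knockout peak within 1 kb (2.75%), with every peak at 2 kb (2.75%) and with the limit on wild-type scores alone (3.24%). No paired analysis was possible because there was a single V5 library of each genotype. A knockout peak that is missing was not called at an unknown depth and threshold.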
